A study of Mus musculus with 45 samples.

Results

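The core planar cell polarity genes were followed through the differentiation of mouse neuroepithelial organoids. They are Vangl1, Vangl2, Celsr1, Celsr2, Celsr3, Fzd3, Fzd6, Prickle1, Prickle2 and Ptk7, and they make up 10 of the 54532 genes in the table of read counts. The list was drawn up by symbol without a cut on values, but with earlier results of these data known. All 10 passed the filter on low counts in each comparison, with 17 to 13396 reads per gene and library.

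Organoids were grown in Matrigel from R1 cells, a wild-type mouse embryonic stem cell line, and each sample pooled many organoids. RNA was taken at day 2, before treatment, and at 8 h, 18 h, 30 h, 42 h, 54 h, 66 h and 78 h later, from organoids left untreated or given 250 nM all-trans retinoic acid (RA) at day 2. The 15 conditions had 3 biological replicates each, which gave 45 RNAseq libraries of 17298632 to 39688686 counted reads. By the study's methods all groups share the same wild-type line, medium and matrix. The labels differ in RA, time and library number. The numbers form an earlier and a later series, with 16 of the 45 libraries in the later one. The later series holds all libraries of 66 h and 78 h and none of 8 h, 18 h or 42 h. It also holds day 2 replicate 3, RA 30 h replicates 2 and 3 and untreated 54 h replicate 3. The dose and times are those of the sample titles and the study's methods, whereas the protocol in the sample labels differs in both. Levels are given in CPM, read counts scaled to library size by TMM, and comparisons between genes use CPM per kb of exon.

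Planar cell polarity is the alignment of cells within the plane of an epithelium. Celsr proteins are large cadherins that bridge neighbouring cells, and they hold Frizzled receptors at one face of a junction and Vangl proteins with the cytoplasmic partner Prickle at the opposite face. In the neural plate this system directs cell intercalation and the closure of the neural tube, and mice that lack Vangl2, Celsr1 or Ptk7, or both Fzd3 and Fzd6, have open neural tubes. Whether RA changed the expression of these genes, when, and in which family members are the questions that the parallel time courses address.

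In each library the genes that mark neural progenitors were present, with all 5 of Sox1, Sox2, Sox3, Pax6 and Nes at 1 CPM or more in each group's mean. Their sum went from 466 to 484 CPM at day 2 to 801 to 919 CPM in untreated and 883 to 1003 CPM in RA-treated libraries at 78 h. Sox2 carried the sum at day 2 with 406 CPM and fell to 220 CPM without and 235 CPM with RA, while Sox1, Sox3, Pax6 and Nes rose. At 78 h Nes (290.5 and 411 CPM) and Pax6 (95.5 and 118 CPM) were higher with RA and Sox1 lower (169 and 95.4 CPM). Sox2 and Sox3 (87.3 and 72.9 CPM) overlapped between the arms. The sum of 5 pluripotency genes went from 1561 to 1675 CPM at day 2 to 411 to 497 CPM without RA and 196 to 362 CPM with RA at 78 h. There Pou5f1 (283 CPM without and 94.7 CPM with RA) and Fgf5 (20.4 and 1.49 CPM) were lower with RA, without overlap. The arms overlapped for Zfp42 (38.8 and 61.5 CPM), Nanog (93.3 and 106 CPM) and Dppa4 (21.0 and 20.9 CPM). Markers of other cells differed between the arms too. The keratins of simple epithelia (Krt7, Krt8, Krt18 and Krt19) summed to 46.2 to 55.6 CPM in untreated and 605 to 627 CPM in RA-treated libraries at 78 h, and 4 neural crest markers to 74.6 to 81.0 and 162 to 202 CPM. In the latter list Ednrb carried the sum, with 160 CPM in RA-treated organoids, and Sox10 was under 1 CPM in both arms. The 5 neuronal markers summed to 253 to 269 CPM without RA and 279 to 304 CPM with RA at 78 h, where Dcx (4.90 and 47.4 CPM), Nhlh1, Tubb3 and Elavl3 were higher with RA and Stmn2 lower (163 and 43.4 CPM), with no overlap between the arms. The 4 endodermal markers summed to 2.29 to 2.63 CPM without RA and 9.85 to 11.1 CPM with RA, with Afp under 1 CPM in both. Mesenchymal and primitive streak lists summed to at most 32.4 CPM in any library, with Gsc under 1 CPM in each group. The part of these cells in the results below was not tested, and in bulk RNA fewer cells of a type and less RNA per cell cannot be told apart.

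A few libraries stood apart. The mean of the Y-chromosome genes Ddx3y, Eif2s3y, Kdm5d and Uty was 1.22 to 3.65 CPM in 6 libraries, namely replicate 3 of RA 8 h, all 3 of untreated 30 h, and replicates 1 and 3 of RA 30 h. In the other 39 it was 22.9 to 89.5 CPM. At 30 h RA replicate 2 was thus alone in the higher range, and its simple epithelial keratins summed to 168 CPM against 34.1 and 37.7 CPM in the other RA-treated libraries of that time. Where the text gives a log2 difference of one of the 10 genes at 8 h or 30 h, it is therefore given with and without RA 8 h replicate 3 or RA 30 h replicate 2. Vangl2, Celsr2, Celsr3 and Fzd6 passed at neither time, with or without these libraries, nor did Celsr1 and Prickle2 at 8 h.

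Per length of exon, Ptk7 was the most highly expressed gene of the set at day 2, with 53.9 ± 4.07 CPM per kb (SD, n = 3). Vangl2 followed with 11.3 ± 0.20, Prickle1 with 8.08 ± 0.13 and Vangl1 with 6.17 ± 0.30 CPM per kb. Prickle2 was the lowest with 0.31 ± 0.05 CPM per kb, and only Celsr2 and Fzd6, and Fzd6 and Fzd3, were neighbours in this order whose libraries overlapped. By 78 h the order had changed. In untreated organoids Ptk7 still led with 47.5 ± 4.01 CPM per kb, above Vangl2 with 33.8 ± 2.87 and Fzd3 with 24.4 ± 1.32. In RA-treated organoids Vangl2 with 35.6 ± 3.82 and Fzd3 with 32.2 ± 2.52 overlapped and lay above Ptk7, which had 28.5 ± 0.55 CPM per kb. Celsr1 and Celsr2 overlapped at 78 h without RA, at 10.5 ± 1.37 and 10.02 ± 0.87 CPM per kb, and separated with RA at 7.16 ± 0.80 and 17.1 ± 3.73. Celsr3, Vangl1 and Fzd6, each next to the other in untreated organoids at 78 h, overlapped in turn, with means between 2.68 and 2.95 CPM per kb.

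**Figure D1:**
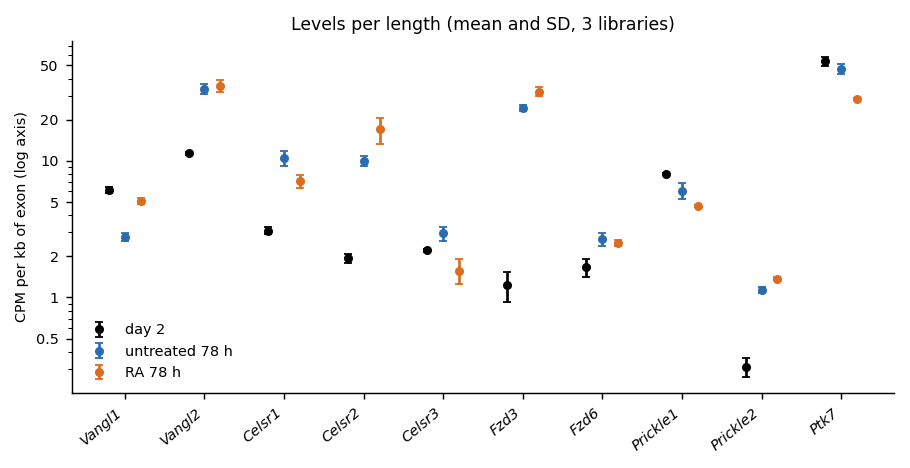
Level of each gene in CPM per kb of exon on a log axis, at day 2 (black), untreated 78 h (blue) and RA 78 h (orange); points are means and bars SD of 3 libraries. Ptk7 is highest at day 2 at 53.9 CPM per kb, and Vangl2 and Fzd3 lie above it in RA-treated organoids at 78 h.

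Most of the set differed between day 2 and later times, as did most of all genes tested. Between day 2 and 78 h without RA, 7 genes rose and 2 fell at an adjusted p under 0.01 over all genes tested, where 36.2% of all 16681 genes rose and 33.3% fell. With RA, 6 rose and 4 fell by 78 h, beside 36.8% and 33.1% of all genes. At 42 h the counts were 7 up and 1 down without RA (28.5% and 26.5% of all genes) and 6 up and 4 down with RA (34.2% and 31.8%). These comparisons share the day 2 libraries. All 78 h libraries but only 1 of the 3 day 2 libraries belong to a later series of library numbers. Time and series are therefore not fully separated in the comparisons of 78 h with day 2. The median log2 change of the 10 genes between day 2 and 78 h was 1.13 without RA and 0.90 with RA, and that of all genes was 0.03 and 0.04.

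With RA, Celsr1, Celsr2, Fzd3, Fzd6, Prickle2, Vangl1 and Vangl2 rose at 1 or more times, and Celsr1, Celsr3, Prickle1 and Ptk7 fell at 1 or more. Differences between paralogues in their response were not tested. No gene of the set passed the test at 8 h, where 1.84% of all 15836 genes rose and 1.3% fell. With DESeq2 2 passed, beside 1460 of all 16225 genes. At an adjusted p under 0.05, 1 passed, a threshold at which all genes were not counted. At 18 h 4 rose and 2 fell (22.3% and 20.3% of all 16508 genes), at 42 h 5 rose and 3 fell (20.5% and 17%), and at 54 h 4 rose and 3 fell (20.8% and 17.9%). At 66 h 2 rose and 4 fell (17.8% and 15.6%), and at 78 h 3 rose and 4 fell (19.2% and 14.2%). With the replicate number fitted as a block at 66 h, 9 passed, beside 7055 of all 16993 genes and 5667 without the block. The counts at 30 h, with 2 up and 1 down (8.21% and 5.92%), rested on single libraries, and the counts over all genes moved the same way. Without RA replicate 2, 6 passed, beside 7378 of all 16832 genes, where 2349 of 16631 passed with every library. Without RA replicate 1 or any of the 3 untreated replicates 0 passed, beside 717 to 1118 of all genes. RA replicates 2 and 3 of 30 h belong to the later number series. With both left out and a lone RA library, the log2 difference at 30 h was 1.20 for Fzd3 and 0.59 for Celsr1. Without RA 8 h replicate 3, 3 passed at 8 h, beside 3323 of all 16329 genes. The median log2 change of the 10 genes lay between -0.17 and 0.27 over the 7 times. For all genes that median lay between -0.01 and 0.04.

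**Figure D2:**
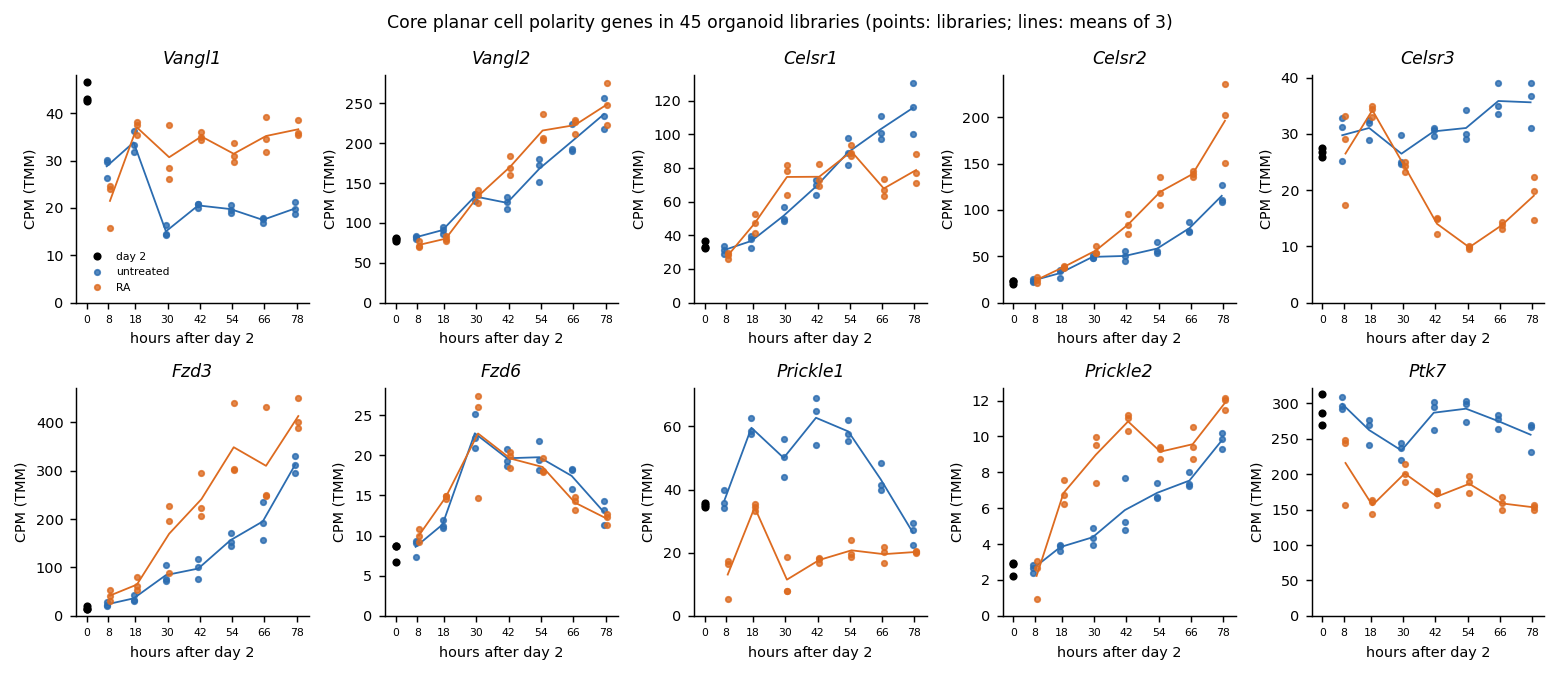
CPM of the 10 genes against hours after day 2 (0 is day 2, black); untreated libraries are blue, RA-treated orange, points are single libraries and lines join means of 3. At 42 h only Celsr1 and Fzd6 overlap between the arms, and Prickle1 and Ptk7 separate at each time after day 2. Fzd6 has its highest mean at 30 h in both, where RA replicate 2 lies lower at 14.7 CPM.

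Vangl1 and Vangl2 encode the transmembrane proteins that define one face of the polarized junction. Vangl1 lies on chromosome 3 (102153583 to 102204693, minus strand, GRCm38) and Vangl2 on chromosome 1 (172000960 to 172028444, minus strand). At day 2 Vangl1 stood at 46.6, 43.1 and 42.7 CPM in the 3 libraries. Untreated organoids had 19.8, 21.2 and 18.6 CPM at 78 h and RA-treated organoids 38.6, 35.9 and 35.4 CPM. The untreated libraries therefore lay below all day 2 libraries, and the RA-treated libraries lay between the day 2 and the untreated levels. The log2 change from day 2 to 78 h was -1.15 ± 0.07 (SE) without RA (edgeR adjusted p = 2.27e-10) and -0.27 ± 0.07 with RA (edgeR adjusted p = 0.00254), and the latter call was lost without day 2 replicate 1 or RA 78 h replicate 2 (edgeR adjusted p = 0.0151 and 0.0138). It was also lost with library totals, at -0.11 (edgeR adjusted p = 0.163), within the later series of library numbers, at -0.24 (edgeR adjusted p = 0.0567), and in one fit of all 45 libraries, at -0.30 (edgeR adjusted p = 0.0154).

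Within a time point Vangl1 was higher with RA at 30 h, 42 h, 54 h, 66 h and 78 h, with no overlap between the arms at any of these 5 times. The log2 difference was 0.76 ± 0.06 at 42 h (edgeR adjusted p = 3.58e-06) and 0.90 ± 0.07 at 78 h (edgeR adjusted p = 1.69e-06). At 30 h it was 1.03 ± 0.17 (edgeR adjusted p = 0.00433), and without RA replicate 2, whose 37.6 CPM exceeded the 28.5 and 26.1 CPM of the other RA-treated libraries, it was 0.84 ± 0.10 (edgeR adjusted p = 6.12e-07). That call was lost without RA 30 h replicate 1 or any of the 3 untreated libraries (edgeR adjusted p from 0.0133 to 0.0322). At 8 h and 18 h it did not pass, with a log2 difference of -0.42 ± 0.16 at 8 h, or -0.25 ± 0.08 without RA 8 h replicate 3 (edgeR adjusted p = 0.0277).

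Vangl2, the gene mutated in Looptail mice, was higher at 78 h than at day 2 in both arms. Its libraries had 80.6, 77.8 and 79.3 CPM at day 2, then 217, 235 and 257 CPM in untreated and 223, 248 and 276 CPM in RA-treated organoids at 78 h. The 78 h arms overlapped. From day 2 the log2 change was 1.58 ± 0.06 without RA (edgeR adjusted p = 7.26e-13) and 1.65 ± 0.08 with RA (edgeR adjusted p = 1.04e-09). RA-treated organoids were above untreated ones only at 42 h, by 0.44 ± 0.06 on the log2 scale (edgeR adjusted p = 0.000226), and at 54 h, by 0.35 ± 0.08 (edgeR adjusted p = 0.00424). The call at 54 h was lost without untreated 54 h replicate 1 or 3 (edgeR adjusted p = 0.0166 and 0.0148). At 8 h and 18 h all RA-treated libraries lay below the untreated ones, without passing. The ratio of Vangl1 to Vangl2 in CPM per kb went from 0.544 ± 0.020 (SD, n = 3) at day 2 to 0.083 ± 0.010 in untreated and 0.145 ± 0.022 in RA-treated organoids at 78 h.

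Celsr1, Celsr2 and Celsr3 encode seven-pass cadherins, of which Celsr1 is the form best known from neural tube closure and Celsr2 and Celsr3 are known from ciliated ependymal cells and axon tracts. Celsr1 lies on chromosome 15 (85898929 to 86033777, minus strand), Celsr2 on chromosome 3 (108390851 to 108415552, minus strand) and Celsr3 on chromosome 9 (108826320 to 108852969, plus strand). The promoters of Celsr2 and Celsr3 are shown because these paralogues moved in opposite directions under RA. Each line holds the 250 bases before a RefSeq start on GRCm38.p6, written 5′ to 3′ on the gene's strand, and capitals mark GGGCGG, the GC box, read on either strand.
Celsr2, chr3:108415580-108415829, minus strand: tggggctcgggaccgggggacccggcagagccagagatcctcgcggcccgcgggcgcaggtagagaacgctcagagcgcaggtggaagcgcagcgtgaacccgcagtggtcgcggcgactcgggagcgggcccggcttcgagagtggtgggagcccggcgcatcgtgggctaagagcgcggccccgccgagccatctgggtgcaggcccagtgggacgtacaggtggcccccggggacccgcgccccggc
Celsr3, chr9:108825795-108826044, plus strand: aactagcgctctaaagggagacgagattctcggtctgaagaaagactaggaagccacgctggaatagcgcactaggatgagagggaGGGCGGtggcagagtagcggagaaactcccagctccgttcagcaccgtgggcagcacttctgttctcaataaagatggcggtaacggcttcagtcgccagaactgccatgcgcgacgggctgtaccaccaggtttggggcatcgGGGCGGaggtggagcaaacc
The Celsr2 window holds 32 CpG and no GC box and the Celsr3 window 17 CpG and 2 GC boxes. For both starts, the 25 downstream bases that were checked occur in no GENCODE M21 transcript of the gene. The median over 32851 mouse promoters of the same length is 6 CpG, and 32.7% of them hold GGGCGG on either strand.

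Celsr2 rose from day 2 in both arms and was higher with RA. It had 23.0, 20.4 and 23.8 CPM at day 2, 111, 109 and 127 CPM in untreated and 151, 203 and 236 CPM in RA-treated organoids at 78 h. All RA-treated libraries lay above all untreated ones at each time from 18 h. The log2 difference passed at 42 h with 0.73 ± 0.10 (edgeR adjusted p = 0.000117), at 54 h with 1.02 ± 0.10 (edgeR adjusted p = 1.14e-05), at 66 h with 0.80 ± 0.06 (edgeR adjusted p = 2.43e-06) and at 78 h with 0.78 ± 0.13 (edgeR adjusted p = 0.000502). Over the course from day 2 to 78 h Celsr2 rose by 3.13 ± 0.15 on the log2 scale with RA and by 2.36 ± 0.08 without.

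Celsr3 went the other way. It had 27.5, 26.8 and 26.0 CPM at day 2, and at 54 h 29.1, 34.2 and 29.9 CPM in untreated and 10.01, 9.53 and 9.96 CPM in RA-treated organoids. The arms did not overlap from 42 h to 78 h, and at 18 h the RA-treated libraries were the higher ones, at 33.1 to 35.1 CPM against 28.8 to 32.4 CPM. Celsr3 fell with RA by 1.13 ± 0.09 on the log2 scale at 42 h (edgeR adjusted p = 2.1e-06), by 1.68 ± 0.09 at 54 h (edgeR adjusted p = 1.27e-07), by 1.37 ± 0.07 at 66 h and by 0.90 ± 0.13 at 78 h (edgeR adjusted p = 0.000195). The ratio of Celsr3 to Celsr2 in CPM per kb was 1.15 ± 0.11 (SD, n = 3) at day 2, and at 78 h 0.296 ± 0.041 without RA and 0.093 ± 0.002 with RA.

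Celsr1 crossed over in time. Untreated libraries had 39.8, 32.1 and 37.9 CPM at 18 h and RA-treated libraries 41.3, 47.1 and 52.8 CPM, whereas at 78 h they had 100, 116 and 130 CPM and 70.9, 77.2 and 88.2 CPM. RA-treated libraries were thus all above the untreated ones at 18 h and all below them at 78 h. The log2 difference was 0.37 ± 0.09 at 18 h (edgeR adjusted p = 0.00327), a call lost without RA 18 h replicate 2 or 3 (edgeR adjusted p = 0.0124 and 0.0247). It was -0.59 ± 0.07 at 66 h (edgeR adjusted p = 5.95e-05) and -0.54 ± 0.09 at 78 h (edgeR adjusted p = 0.000597). At 30 h it was 0.53 ± 0.13 (edgeR adjusted p = 0.0194), and 0.44 ± 0.09 without RA replicate 2 (edgeR adjusted p = 0.000337).

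Fzd3 and Fzd6 encode the Frizzled receptors of the opposite junctional face. Fzd3 lies on chromosome 14 (65192449 to 65262463, minus strand) and Fzd6 on chromosome 15 (39006034 to 39038188, plus strand). Fzd3 had the widest range of the set, with a 26.1-fold ratio between its highest group mean, 413 CPM with RA at 78 h, and its lowest, 15.8 CPM at day 2. Libraries at day 2 had 13.1, 13.9 and 20.3 CPM, and at 78 h 329, 311 and 296 CPM without RA and 388, 401 and 449 CPM with RA. Replicates of Fzd3 spread widely: RA-treated libraries at 66 h had 431, 251 and 248 CPM, and at 30 h 195, 87.9 and 226 CPM, of which the lowest was RA 30 h replicate 2.

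From day 2 to 78 h Fzd3 rose by 4.30 ± 0.12 on the log2 scale without RA (edgeR adjusted p = 1.33e-14) and by 4.70 ± 0.14 with RA (edgeR adjusted p = 2.64e-11). RA-treated libraries lay above untreated ones at each time but 30 h. The log2 difference was 0.85 ± 0.15 at 18 h (edgeR adjusted p = 0.000355), 1.29 ± 0.16 at 42 h (edgeR adjusted p = 7.7e-05), 1.14 ± 0.14 at 54 h (edgeR adjusted p = 5.37e-05) and 0.42 ± 0.07 at 78 h (edgeR adjusted p = 0.000619). At 8 h, 30 h and 66 h it did not pass, with 0.83 ± 0.22, 1.00 ± 0.32 and 0.68 ± 0.21. Without RA 30 h replicate 2 the difference at 30 h was 1.30 ± 0.11 (edgeR adjusted p = 1.43e-08), without RA 8 h replicate 3 that at 8 h was 0.60 ± 0.13 (edgeR adjusted p = 0.0022), and with the replicate block that at 66 h was 0.65 (edgeR adjusted p = 1.29e-06).

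Fzd6 followed a different course, with its highest group mean at 30 h in both arms. The 30 h libraries above 20 CPM were all among those low in Y-chromosome genes. RA 30 h replicate 2, which was not, had 14.7 CPM, beside 18.4 to 20.5 CPM with RA at 42 h. Its libraries had 8.66, 8.69 and 6.68 CPM at day 2, 25.2, 20.9 and 22.2 CPM at 30 h without RA and 27.4, 14.7 and 26.0 CPM at 30 h with RA. At 78 h the untreated libraries had 11.3, 13.1 and 14.3 CPM and the RA-treated 12.6, 11.3 and 12.3 CPM, which overlapped. Only at 18 h did the RA effect pass, with a log2 difference of 0.39 ± 0.08 (edgeR adjusted p = 0.00108). Relative to day 2 Fzd6 rose by 0.69 ± 0.12 on the log2 scale without RA and by 0.60 ± 0.12 with RA at 78 h (edgeR adjusted p = 6.63e-05 and 0.000667). The ratio of Fzd6 to Fzd3 in CPM per kb went from 1.43 ± 0.48 (SD, n = 3) at day 2 to 0.111 ± 0.018 without RA and 0.078 ± 0.007 with RA at 78 h.

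Prickle1 and Prickle2 encode cytoplasmic LIM-domain proteins that bind Vangl. Prickle1 lies on chromosome 15 (93499114 to 93595891, minus strand) and Prickle2 on chromosome 6 (92370908 to 92706155, minus strand). Their most upstream promoters are shown because they too are paralogues that RA moved in opposite directions, with capitals for GGGCGG and CCAAT on either strand.
Prickle1, chr15:93595903-93596152, minus strand: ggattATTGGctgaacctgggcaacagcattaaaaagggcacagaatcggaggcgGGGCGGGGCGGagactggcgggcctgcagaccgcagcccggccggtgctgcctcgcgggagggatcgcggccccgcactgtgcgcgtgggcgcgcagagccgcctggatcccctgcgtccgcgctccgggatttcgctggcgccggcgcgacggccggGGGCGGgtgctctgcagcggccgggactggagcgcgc
Prickle2, chr6:92706185-92706434, minus strand: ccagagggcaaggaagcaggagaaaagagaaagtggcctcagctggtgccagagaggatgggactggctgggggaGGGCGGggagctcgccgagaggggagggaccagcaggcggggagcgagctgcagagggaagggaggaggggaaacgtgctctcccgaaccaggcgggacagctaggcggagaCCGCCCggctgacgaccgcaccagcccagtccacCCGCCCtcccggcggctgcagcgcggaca
Both windows hold 3 GC boxes, of which a pair in Prickle1 overlaps. The 25 downstream bases checked occur in a GENCODE M21 transcript of the gene for this Prickle1 start but not for this Prickle2 start. Prickle1 also holds 1 CCAAT, on the opposite strand, a motif found in 33.8% of all promoters. Of the 10 genes, 6 had promoters in the RefSeq table, 10 in all, and none of these 10 holds AGGTCA, the half-site that retinoid receptors bind, on either strand, which 14% of all promoters hold.

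Prickle1 had the largest log2 change with RA of the 10 genes, and it fell at 6 of the 7 times. Untreated libraries had 62.6, 57.5 and 58.6 CPM at 18 h and 54.2, 69.0 and 65.0 CPM at 42 h, and RA-treated libraries 33.3, 34.4 and 35.4 CPM and 18.1, 18.4 and 16.6 CPM. Each RA-treated library lay below each untreated library at all 7 times. The log2 change with RA was -0.78 ± 0.06 at 18 h (edgeR adjusted p = 1.75e-07), -1.84 ± 0.09 at 42 h (edgeR adjusted p = 8.34e-08), -1.51 ± 0.09 at 54 h (edgeR adjusted p = 3.49e-07) and -1.13 ± 0.10 at 66 h (edgeR adjusted p = 1.33e-05). By 78 h untreated libraries had themselves come down to 22.4, 29.4 and 27.3 CPM, beside 20.1, 20.6 and 20 CPM with RA. The difference there was -0.37 ± 0.09 (edgeR adjusted p = 0.00446), and it no longer passed without untreated 78 h replicate 2 or 3 or RA 78 h replicate 2 (edgeR adjusted p from 0.0153 to 0.0255).

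At 8 h Prickle1 had 39.7, 34.3 and 35.9 CPM without RA and 17.4, 16.4 and 5.36 CPM with RA. The lowest value belonged to RA 8 h replicate 3. With it the log2 change was -1.48 ± 0.36 (edgeR adjusted p = 0.0423), and without it -1.12 ± 0.09 (edgeR adjusted p = 7.85e-08). At 30 h RA replicate 2 was the high library, with 18.7 CPM against 7.86 and 7.82 CPM in the others and 55.9, 50.2 and 44.0 CPM without RA. The change there was -2.12 ± 0.35 (edgeR adjusted p = 0.00461), and -2.70 ± 0.10 without RA replicate 2 (edgeR adjusted p = 1.41e-13). The call at 30 h was lost when any other of the 6 libraries was left out (edgeR adjusted p from 0.0107 to 0.0236).

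Prickle2 was far lower in abundance and rose with time in both arms. It had 2.20, 2.95 and 2.91 CPM at day 2 and, at 42 h, 4.79, 5.21 and 7.68 CPM without RA and 11.2, 10.3 and 11.01 CPM with RA. RA-treated libraries were above untreated ones at each time from 18 h on. The log2 difference passed at 18 h with 0.85 ± 0.12 (edgeR adjusted p = 8.74e-05), at 30 h with 1.04 ± 0.18 (edgeR adjusted p = 0.00522) and at 42 h with 0.86 ± 0.16 (edgeR adjusted p = 0.00123), and later times had values of 0.30 to 0.40 that did not pass. At 66 h it passed with the replicate block, at 0.35 (edgeR adjusted p = 0.00564), with library totals, at 0.41 (edgeR adjusted p = 0.00787), and without RA 66 h replicate 1, at 0.42 (edgeR adjusted p = 0.00858), and at 54 h it passed with library totals, at 0.46 (edgeR adjusted p = 0.00553). At 30 h it was 1.14 ± 0.15 without RA replicate 2 (edgeR adjusted p = 2.3e-06), and leaving out any other library of that time lost the call (edgeR adjusted p from 0.016 to 0.0378). The ratio of Prickle1 to Prickle2 in CPM per kb was 26.4 ± 4.22 (SD, n = 3) at day 2. It was 30.9 ± 0.86 without RA and 10.01 ± 0.69 with RA at 18 h, and 5.35 ± 0.49 and 3.39 ± 0.08 at 78 h, with no overlap between the arms at any of the 7 times.

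Ptk7, on chromosome 17 (46564471 to 46629504, minus strand), encodes a receptor with an inactive kinase domain that acts with Vangl2 in the neural plate. It had 287, 270 and 314 CPM at day 2, 231, 266 and 270 CPM without RA at 78 h and 150, 154 and 156 CPM with RA. Its untreated group means stayed between 234 and 299 CPM over the course, and RA-treated libraries lay below untreated ones at all 7 times. The log2 change with RA was -0.74 ± 0.06 at 18 h (edgeR adjusted p = 6.34e-07), -0.78 ± 0.07 at 42 h (edgeR adjusted p = 4.42e-06), -0.67 ± 0.06 at 54 h, -0.78 ± 0.05 at 66 h and -0.72 ± 0.06 at 78 h (edgeR adjusted p = 1.67e-06). At 8 h it was -0.47 ± 0.16 (edgeR adjusted p = 0.107), where RA replicate 3 had 156 CPM and the other RA-treated libraries 248 and 243 CPM. Without that library it was -0.29 ± 0.06 (edgeR adjusted p = 0.00233), and at 30 h it was -0.21 ± 0.09 with all libraries (edgeR adjusted p = 0.132) and -0.28 ± 0.07 without RA replicate 2 (edgeR adjusted p = 0.00119).

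**Figure D3:**
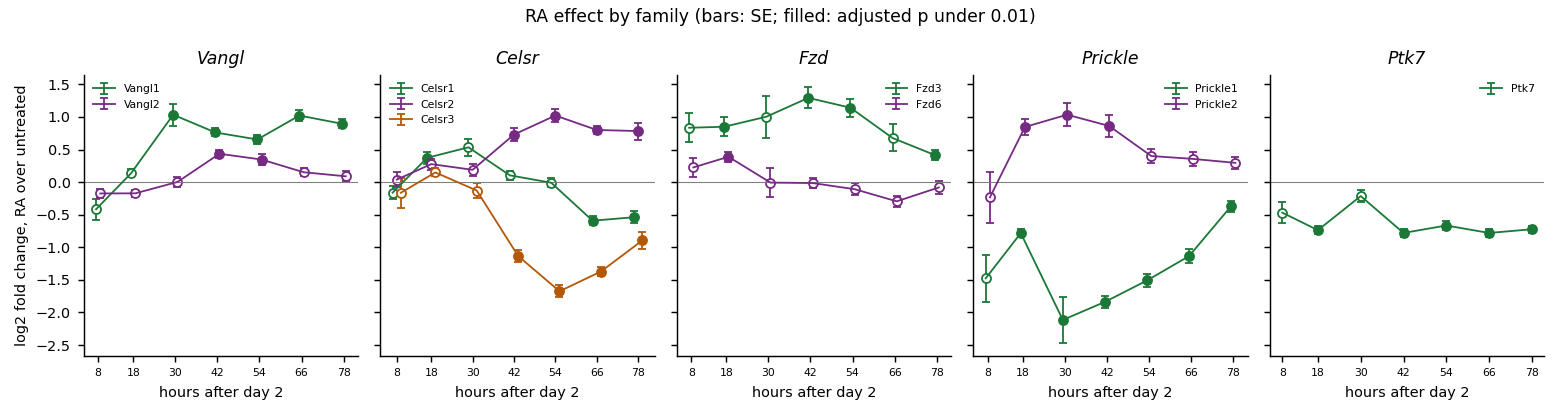
Log2 fold change of RA-treated over untreated organoids for each gene against hours after day 2; bars are SE, filled points passed at an adjusted p under 0.01 and open points did not. Prickle1 reaches -2.12 at 30 h and Celsr3 -1.68 at 54 h, while Fzd3, Celsr2 and Vangl1 lie above 0 from 18 h.

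The effect of RA differed between 18 h and 78 h for 6 of the 10 genes when the difference itself was tested over the 12 libraries of both times. It was more positive at 78 h for 2 and more negative for 4, beside 13.1% and 14.8% of all 18017 genes. The change was most marked for Celsr3, at -1.07 ± 0.16 on the log2 scale, Celsr1, at -0.93 ± 0.14, and Vangl1, at 0.74 ± 0.09 (edgeR adjusted p = 5.15e-05, 7.86e-05 and 1.17e-05). For Ptk7 and Vangl2 the difference did not pass. Without untreated 18 h replicate 3, or without RA 78 h replicate 2, 3 genes passed, beside 4130 and 4390 of all genes and 5034 with all 12 libraries. All libraries of 78 h belonged to the later series of library numbers and those of 18 h to the earlier, so that the 18 h and 78 h levels also differ by series, while each RA comparison lies within its own series.

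Over the 15 group means of log2(CPM + 1), Celsr1, Celsr2, Fzd3, Vangl2 and Prickle2 followed each other closely, with Pearson's r between 0.83 and 0.96 for each pair. Vangl1 had r of -0.47 to 0.11 with the other 9. These values share libraries and time points and are descriptions. Among 14314 genes with a mean of at least 1 CPM, the patterns most like Fzd3 were those of Msi1, an RNA-binding protein of neural progenitors, and Gng12, a G protein subunit, with r of 0.995 and 0.993. For Celsr2 they were Hhipl1 and Emid1, with r of 0.991 and 0.990. For Prickle1 they were Pcsk2, a proprotein convertase, and the VEGF receptor gene Flt1, with r of 0.911 and 0.90.

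The wider pathway was described by 40 further genes that code for ligands, receptors, cytoplasmic partners, effectors and regulators of planar polarity and for the Fat and Dachsous system. Of these, 11 rose and 7 fell with RA at 18 h (22.3% and 20.3% of all genes), 12 rose and 7 fell at 42 h (20.5% and 17%), 15 rose and 7 fell at 54 h (20.8% and 17.9%), and 10 rose and 8 fell at 66 h (17.8% and 15.6%). At 78 h 10 rose and 9 fell (19.2% and 14.2%). At 8 h 2 rose and 3 fell of 38 tested (1.84% and 1.3% of all genes) and at 30 h 5 rose and 3 fell of 39 tested (8.21% and 5.92%). The numbers that passed were 16 without RA 8 h replicate 3 and 18 without RA 30 h replicate 2, beside 3323 and 7378 of all genes. Leaving out any other library at 8 h left 1 or 2, and at 30 h leaving out RA replicate 1 or an untreated library left 2 to 5. Over all genes these fits left 86 to 237 and 717 to 1118. The median log2 change of the wider list was 0.02 to 0.26 over the 7 times. Small GTPases and their kinase targets were named after their values were seen. Cdc42, Rac1 and Rhoa passed at none of the 7 times. Rock1 and Rock2 passed only at 8 h and 18 h, where both rose, by 0.37 and 0.83 on the log2 scale at 18 h.

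Of the 7 receptors and co-receptors of the list, 2 rose and 4 fell at 18 h (22.3% and 20.3% of all genes). At 42 h 2 rose and 3 fell (20.5% and 17%), as at 54 h (20.8% and 17.9%). At 66 h 1 rose and 4 fell (17.8% and 15.6%), as at 78 h (19.2% and 14.2%). Gpc4, a glypican co-receptor, fell at all 7 times, from 43.5 ± 2.90 CPM (SD, n = 3) without RA to 18.4 ± 0.70 with RA at 8 h and from 26.0 ± 3.41 to 10.3 ± 1.62 at 54 h. Its log2 change was -1.23 at 8 h, or -1.25 without RA 8 h replicate 3, and -1.34 at 54 h, and the call at 30 h was lost without any library but RA 30 h replicate 2. Ror1, a receptor for Wnt5a, fell at 6 of 7 times, by 1.83 on the log2 scale at 54 h, from 29.8 ± 2.20 to 8.50 ± 1.33 CPM. Its call at 30 h was lost without any of the 3 untreated libraries. Fzd7, a Frizzled receptor, also fell at 6 times, by 0.91 at 78 h, from 330 ± 25.1 to 174 ± 6.17 CPM.

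Among regulators, Dact1, which binds Dishevelled and Vangl proteins, rose at 6 times, from 5.96 ± 0.63 to 13.1 ± 1.27 CPM at 18 h with a log2 change of 1.16, and lost its call at 30 h without untreated 30 h replicate 1. Cthrc1, a secreted glycoprotein that promotes Wnt binding to polarity receptors, fell at 5 times, from 4.74 ± 0.52 to 0.98 ± 0.36 CPM at 54 h with a log2 change of -2.28. Daam2, a formin that links Dishevelled to actin, came on earlier with RA. It had 0.24 ± 0.12 CPM without and 3.11 ± 0.68 CPM with RA at 30 h, a log2 change of 3.67, or 3.81 without RA 30 h replicate 2, whereas at 78 h the arms overlapped at 12.5 to 17.7 and 12.4 to 14.5 CPM. The Daam2 call at 18 h was lost without untreated 18 h replicate 2 or 3 or RA 18 h replicate 2.

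The Fat and Dachsous cadherins are a system that acts beside the core genes. Fat4 rose with RA at 4 times, from 3.19 ± 0.37 to 18.6 ± 5.97 CPM at 54 h and from 21.3 ± 2.97 to 63.2 ± 14.5 CPM at 78 h, with log2 changes of 2.51 and 1.58. Dchs2 fell at 4 times, from 11.7 ± 0.91 to 1.66 ± 0.90 CPM at 54 h and from 16.9 ± 0.23 to 3.99 ± 0.61 CPM at 78 h, with log2 changes of -2.85 and -2.07. Dchs1, chosen after its values were seen, rose at 4 times, from 12.4 ± 2.72 to 23.5 ± 2.66 CPM at 42 h, with a log2 change of 0.91.

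**Figure D4:**
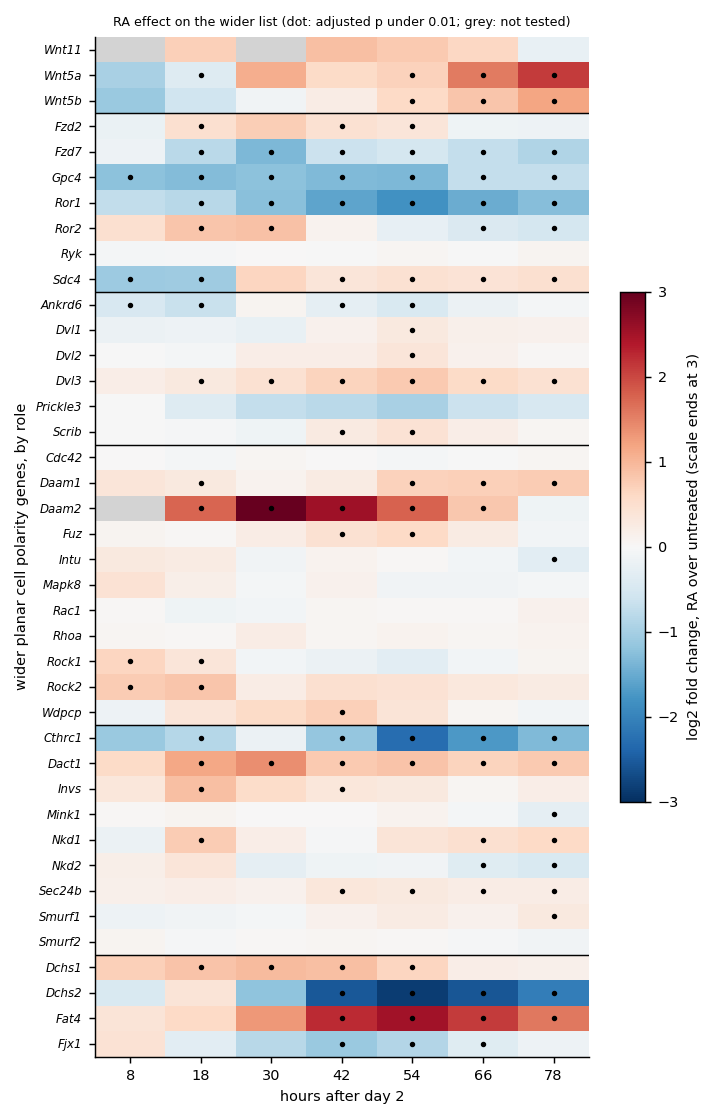
Log2 fold change of RA-treated over untreated organoids for the 40 wider genes (rows, grouped by role with lines between roles) at 7 times after day 2 (columns); red is higher with RA, blue lower, a dot marks an adjusted p under 0.01 and grey a gene not tested. Gpc4 is blue at all 7 times, Fat4 and Dchs2 take opposite colours from 42 h, and Daam2 is red from 18 h to 66 h.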

How the data were processed

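RNAseq of 45 samples was analysed. Reads were trimmed by the authors (Trim Galore 0.5.0). The authors removed abundant sequences with Bowtie 2 2.3.4.1, aligned with STAR to GRCm38 (Ensembl annotation), counted with featureCounts (Subread 1.6.2) and deposited raw counts per gene, without normalization. The strand setting of the counting is not given in the sources used here. Library numbers in the sample titles matched columns to samples.

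The 10 members, the wider list, the markers and the tests were chosen with earlier results of these data known. Each comparison was fitted to its own libraries with edgeR 4.0.16 in R 4.3.3 (TMM, filterByExpr with minimum count 10 and minimum total count 15, glmQLFit, glmQLFTest). Adjusted p-values follow Benjamini and Hochberg over all genes tested, and the threshold was 0.01. The SE is the log2 change divided by the square root of F. P-values measure the spread between the biological replicates named in the labels. Replicate pairs differed by more than sampling noise, with a chi-square per gene of at least 1.97. Wider genes were named if they passed at 4 or more of 7 RA comparisons in one direction with a log2 change beyond 1 in at least 1 of these; for the 3 members with the widest range, the 2 genes nearest in pattern were named. Y-chromosome genes were named after their values were seen. Positions and exon lengths come from GENCODE M21, which placed 54409 genes, and promoters from RefSeq (GRCm38.p6). Exons of Vangl1, Celsr3 and Fzd6 overlap other genes, which had at most 20 reads in any library.

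Equal replicate numbers are not stated to mark shared cultures. Deviations from the group means correlated above 0.1 in every same-numbered pair only at 66 h (0.52, 0.21 and 0.25). The reported calls at 66 h, as at all times, come from a fit without pairing, and the replicate block is given beside them. On simulated counts with 200 changed genes, edgeR recovered 100% of those changed by 1 on the log2 scale among 16228 genes run at 18 h, with 6 false calls. The interaction test recovered 92% among 17530. No smaller change and no outlying library was simulated, so recovery of smaller changes, and of calls at 8 h and 30 h, was not tested. In the data 7031 of 16508 genes passed at 18 h, far more than the 200 simulated. Other settings tried were scaling by RLE or by library totals, DESeq2 1.42.0, one fit of all 45 libraries, no filter, the replicate block, other thresholds, single series of library numbers and each library left out.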

Additional observations from a re-analysis of the deposited data

Results flagged for a closer look

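The effect of RA at 78 h minus that at 18 h passed the test of the difference itself for 6 members (edgeR's quasi-likelihood interaction test over 12 libraries, Benjamini-Hochberg adjusted). On the log2 scale it was 0.74 for Vangl1 (adjusted p = 1.17e-05), -0.93 for Celsr1 (7.86e-05), -1.07 for Celsr3 (5.15e-05), -0.49 for Fzd6 (0.00387), 0.39 for Prickle1 (0.00609) and -0.57 for Prickle2 (0.00353). The calls of Fzd6, Prickle1 and Prickle2 were lost on leaving out 6, 6 and 7 of the 12 libraries in turn, and those of the other 3 on leaving out none. Celsr1 was higher with RA in 3 of 3 libraries at 18 h and lower in 3 of 3 at 78 h. Groups of 3 libraries were not tested for outlying samples.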

How the results depend on the processing

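Requiring a log2 change beyond 1 as well left 0 members at 18 h and 78 h, 3 at 42 h and 66 h, 4 at 54 h, 6 for RA 42 h and 5 for RA 78 h against day 2, and 1 for the difference between 18 h and 78 h. All genes were not counted with that requirement, so no share stands beside these numbers. At 8 h, where no member passed, DESeq2 and no filter on low counts each gave 2 and one fit of all 45 libraries 3. Over all genes these settings gave 1460, 1074 and 2826, beside 497 in the reported fit. An adjusted p under 0.05 gave 1 member, and all genes were not counted at that threshold. At 30 h, with 3, DESeq2 and the fit of all libraries each gave 5, beside 3663 and 6966 of all genes and 2349 in the reported fit. For the difference between 18 h and 78 h, with 6, the fit of all libraries gave 3, beside 3531 of all genes and 5034 in the reported fit. Leave-one-out counts ranged from 0 to 3 at 8 h, from 0 to 6 at 30 h and from 3 to 8 for the difference between times. Over all genes they ranged from 86 to 3323, from 717 to 7378 and from 4130 to 5149. The replicate block gave 9 members at 66 h and 2 at 30 h, and the reported count at the other comparisons. Over all genes it gave 7055 at 66 h and 1820 at 30 h, beside 5667 and 2349 in the reported fits. Among changes of members and named genes that passed, or of members that reached 0.3 on the log2 scale, none turned direction under these alternatives. Of 1038 values with a library left out 67 lost and 9 gained the call, and of 1052 under other alternatives 30 lost and 22 gained it. Scaling by library totals moved the median log2 change of all genes to 0.14 at 18 h, 0.18 at 30 h, 0.12 to 0.20 against day 2 and -0.13 for the difference between times. Under that scaling Vangl1 with RA against day 2 no longer passed at 42 h or 78 h, nor did Celsr3 at 78 h, so these small falls depend on the scaling. Prickle2, with as few as 17 reads in a library, is the member whose counts are the lowest.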

Other observations

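Outside the rule for named genes, and chosen after their values were seen, the ligand gene Wnt5a and the co-receptor gene Sdc4 changed direction with time. Wnt5a had a log2 change with RA of -0.38 at 18 h and 2.09 at 78 h, and Sdc4 of -1.07 at 18 h and 0.48 at 78 h, all past an adjusted p under 0.01 in edgeR's quasi-likelihood test. The test of the difference between these times gave 2.44 ± 0.19 (SE) for Wnt5a and 1.53 ± 0.09 for Sdc4 on the log2 scale (adjusted p = 4.08e-08 and 1.65e-09). Wnt5b rose with RA at 78 h, with a log2 change of 1.18.

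Summed over the 10 members, CPM per kb of exon went from 89.9 ± 4.32 (SD, n = 3) at day 2 to 142 ± 8.55 without RA and 136 ± 11.3 with RA at 78 h. At 18 h the sum was 94.5 ± 4.93 without RA and 72.9 ± 2.76 with RA, and the libraries did not overlap. Ptk7 had 48.7 and 29.0 CPM per kb of these sums and Prickle1 13.7 and 7.91, while 4 of the other members rose.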
